A study of Sus scrofa with 31 samples.

Results

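Frontal cortex and hippocampal microglia of young pigs were compared, 8 samples of each, or 16 of the 31 samples in the series. All samples with these labels were taken. The labels name 13 pigs by tag number, of which 3 gave both regions and 10 gave 1 of them. The animals were uncastrated male crossbred piglets (Large White × Landrace sows, Duroc boars) in the fourth week of life, and the labels give no genetic change or experimental drug in either group. All had been sedated with ketamine, midazolam and medetomidine for imaging, with isoflurane anaesthesia and topical lidocaine, before they were killed with pentobarbital. They were raised in standard pens or in pens with more freedom of movement, and the labels do not say which pig came from which, so housing was not analysed. Microglia were sorted from fresh cell suspensions of each region as cells with high CD11b and low or no CD45, and total RNA was sequenced. The other samples of the series, cerebellar microglia, alveolar macrophages and whole hippocampal tissue, enter only as reference levels.

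Microglia are the resident macrophages of the brain parenchyma. They enter the brain early in development, renew themselves there, and depend on signals through the receptor encoded by CSF1R. They survey the tissue with motile processes, take up debris and synapses, and secrete complement and cytokines. Their transcriptome is known to vary with brain region, and the question addressed here is which genes separate the frontal cortex from the hippocampus.

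Only 4 of 7738 tested genes (0.0517%) separated the regions at an adjusted p under 0.01, 2 in each direction (0.0258% each), and all 4 had non-overlapping groups. COL4A2 and the unnamed gene ENSSSCG00000044051 were higher in frontal cortex microglia, by 4.24-fold and 6.74-fold. A2M and RGS9 were higher in hippocampal microglia, by 1.70-fold and 2.38-fold. At an adjusted p under 0.05, 30 genes passed (0.388%), of which 13 were higher in frontal cortex (0.168%) and 17 in hippocampus (0.22%). On library totals alone, without TMM factors, the split was 23 and 8 at 0.05, and 3 and 0 at 0.01. An unadjusted p under 0.05 was found for 799 genes (10.3%).

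COL4A1 and COL4A2 encode the chains of the most widespread type IV collagen, the network-forming collagen of basement membranes, and both were among the frontal cortex genes. They lie head to head on chromosome 11 of Sscrofa11.1, COL4A1 at 76858332 to 76997409 on the minus strand and COL4A2 at 76996885 to 77161617 on the plus strand. RefSeq lists 2 starts for COL4A2, one 525 bases inside the COL4A1 gene and the other 133 bases upstream of its start. The stretch between those divergent starts is printed because both genes share it. It is written 5′ to 3′ on the plus strand at chr11:76997410-76997542, with matches on either strand to GGGCGG, known as the GC box, and to CCAAT in capitals. No other motif was found of the 3 further ones searched on both strands, TGANTCA for AP-1, GAGGAAGT for the macrophage factor PU.1 and TATAAA for the TATA box.
COL4A1/COL4A2: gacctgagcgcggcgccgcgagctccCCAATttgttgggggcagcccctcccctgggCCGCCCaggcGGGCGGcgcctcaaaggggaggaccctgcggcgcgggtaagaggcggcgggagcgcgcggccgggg

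The stretch was 78.9% G or C, against a median of 60.9% over 19556 windows of the same length directly upstream of protein-coding genes. It held 2 GC boxes, which do not overlap, and 1 CCAAT. Of those windows, 39.1% held a GC box and 21.5% a CCAAT. The matches describe letters only.

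The 250 bases upstream of RGS9 and A2M, the named genes that were higher in hippocampal microglia, are printed to set them beside the collagen stretch. RGS9 is on the plus strand of chromosome 12 (12015321 to 12087982) and its window is chr12:12015071-12015320. A2M is on the plus strand of chromosome 5 (62406928 to 62483690) and its window is chr5:62406678-62406927. RefSeq also lists later starts for both genes, at 12015359 and 12025214 for RGS9 and at 62438024 for A2M, and which start these cells used was not tested.
RGS9: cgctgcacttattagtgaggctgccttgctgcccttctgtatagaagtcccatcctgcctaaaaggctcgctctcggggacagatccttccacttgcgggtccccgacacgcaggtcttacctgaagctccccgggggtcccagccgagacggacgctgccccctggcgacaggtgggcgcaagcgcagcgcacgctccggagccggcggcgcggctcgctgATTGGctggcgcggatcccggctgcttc
A2M: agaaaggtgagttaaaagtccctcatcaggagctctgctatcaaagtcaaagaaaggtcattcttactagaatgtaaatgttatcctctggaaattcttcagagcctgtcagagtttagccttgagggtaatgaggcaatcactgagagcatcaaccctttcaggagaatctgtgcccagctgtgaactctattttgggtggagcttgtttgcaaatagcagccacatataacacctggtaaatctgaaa

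The RGS9 window was 66.8% G or C, with a single CCAAT (31.9% of 19555 windows hold one), read on the minus strand. The A2M window was 42.0% G or C, with none of the 5 motifs. The median of windows of this length was 57.6%.

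Between 22197936 and 36503520 reads were counted per sample, with medians of 29274853 in frontal cortex and 27360093 in hippocampal microglia. The regions did not differ detectably in total counts (exact permutation test, two-sided, p = 0.877), in the share of counts on the 20 most counted genes (p = 0.31) or in the share on mitochondrial genes (p = 0.221). The adjusted p over these 3 tests was 0.464 or more. At these depths 3 counts, the floor used, are 0.0822 to 0.135 CPM (counts scaled to the library total), and this covers counting error only. The labels of these samples were checked against marker genes. The summed level of 18 microglial markers was 11000 to 14270 CPM in frontal cortex and 9088 to 13380 CPM in hippocampal samples, against 374 to 482 CPM in whole hippocampal tissue.

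Summed markers of oligodendrocytes, neurons and endothelium were below tissue levels but not absent, and 2 frontal cortex samples stood apart. Oligodendrocyte markers, which encode myelin proteins and enzymes, summed to 3059 CPM in the frontal cortex sample of pig 12599 and 1869 CPM in that of pig 12891. The other 6 frontal cortex samples held 201 to 484 CPM, and the 8 hippocampal samples 178 to 602 CPM, while whole tissue held 13540 to 26730 CPM. OPALIN, alone among the 11 oligodendrocyte markers, reached its tissue range. It was 653 CPM in pig 12599 and 377 CPM in pig 12891, against 288 to 654 CPM in tissue. These same 2 samples had the highest neuronal sums (683 and 403 CPM, against 50.0 to 234 CPM in the other 14). The mitochondrial sum was highest in the frontal cortex sample of pig 12902, at 15610 CPM, against 4420 to 8704 CPM in the other 15. Endothelial markers summed to 4.36 to 33.0 CPM in frontal cortex and 10.1 to 25.0 CPM in hippocampal samples, against 178 to 202 CPM in tissue.

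**Figure D1:**
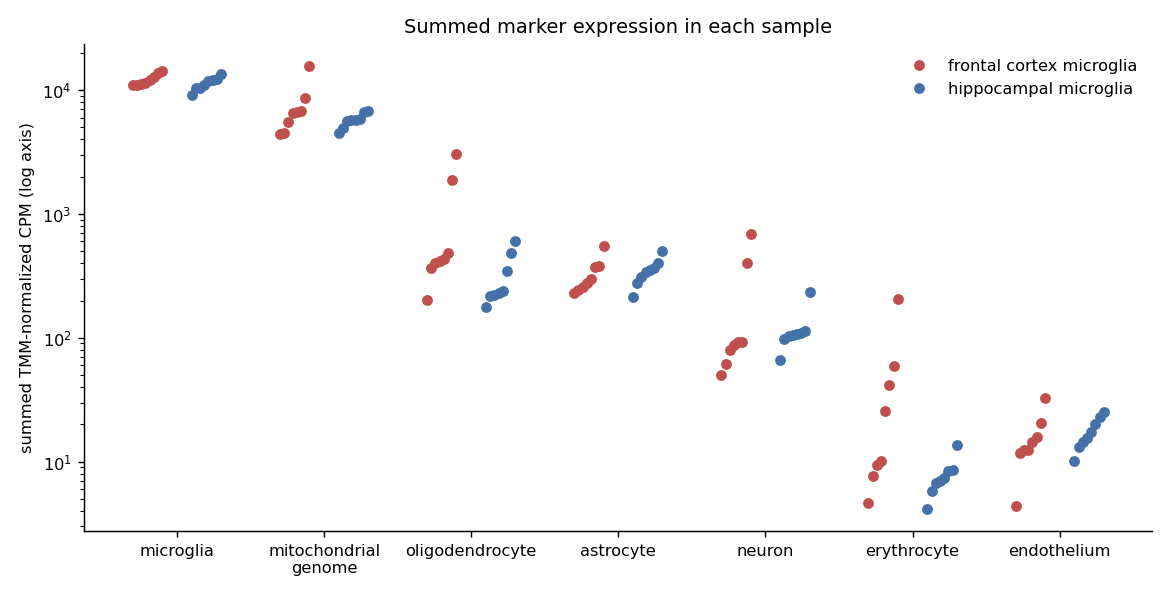
Summed CPM of marker lists (vertical log axis) in each of the 8 frontal cortex (red) and 8 hippocampal (blue) microglia samples, 1 point per sample, sorted within a group. Microglial markers lie near 11000 CPM in both groups, and oligodendrocyte and neuronal sums are highest in 2 frontal cortex samples.

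COL4A2 gave the clearest difference among genes with a symbol. Its level was 118 to 180 CPM in frontal cortex microglia (median 139) and 18.9 to 61.4 CPM in hippocampal microglia (median 30.6). Every frontal cortex sample lay above every hippocampal one, and the lowest frontal cortex value was close to 2 times the highest hippocampal value. The log2 fold change was 2.08 ± 0.22 (SE; 95% interval 1.63 to 2.54; edgeR quasi-likelihood, adjusted p = 3.86e-05). In bulk RNA of this kind, fewer cells that express a gene and less RNA per cell cannot be told apart.

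The 3 pigs with both regions showed the same direction for COL4A2. Pig 12750 had 179 CPM in frontal cortex and 36.3 CPM in hippocampus, pig 12758 had 127 and 27.5 CPM, and pig 12847 had 151 and 61.4 CPM. These within-pig differences were 2.30, 2.20 and 1.29 on the log2 CPM scale. The 10 samples of the other pigs, which also entered the main fit, gave a log2 fold change of 2.24 (edgeR, adjusted p = 0.00281).

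COL4A1 was 36.8 to 59.6 CPM in frontal cortex (median 41.6) and 16.5 to 35.9 CPM in hippocampal microglia (median 24.5), again without overlap. The highest hippocampal and the lowest frontal cortex value were less than 1 CPM apart. The fold was smaller than for its partner, with a log2 fold change of 0.83 ± 0.16 (edgeR, adjusted p = 0.031), which passed 0.05 and not 0.01. Within pigs the log2 differences were 1.00, 0.99 and 1.02. Reads in the overlap of the 2 genes could be given to either, because strand use in the counting is not given in the sources used here.

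Endothelial and mural cells also make type IV collagen, so their markers are given beside it. Among endothelial genes, KDR and CDH5 were at 0 in every hippocampal sample and had a median of 0 in frontal cortex, with highest values of 0.263 and 0.788 CPM. The tight junction gene CLDN5 reached 4.66 CPM in frontal cortex, in the sample of pig 12891, and 0.609 CPM in hippocampal samples, against 24.6 to 30.8 CPM in tissue. PECAM1, which leukocytes also express, was 3.41 to 17.2 CPM in frontal cortex (median 9.49) and 2.24 to 15.1 CPM in hippocampal samples (median 6.72). TEK, the angiopoietin receptor, was lower in frontal cortex (0 to 4.85 CPM, median 1.57) than in hippocampal samples (4.45 to 15.1 CPM, median 7.86), with overlapping groups. The mural genes PDGFRB and RGS5 reached 12.2 and 3.22 CPM in frontal cortex and 3.93 and 3.99 CPM in hippocampal samples. Fibroblast genes LUM and DCN had medians of 1.86 and 2.99 CPM in frontal cortex and 0.033 and 1.23 CPM in hippocampal samples. COL1A1 and COL3A1 reached 92.7 and 4.18 CPM in frontal cortex, both in pig 12891, and 1.10 and 0 CPM in hippocampal samples. COL1A2 was lower in frontal cortex (median 431 against 565 CPM), and every sample of both groups lay above tissue (69.8 to 137 CPM). It made up most of the summed mural and fibroblast list (median 452 against 571 CPM), so that sum follows COL1A2. Of the other members, PDGFRB, RGS5, COL1A1, LUM and DCN had higher medians in frontal cortex, and TAGLN a lower one. ACTA2, KCNJ8 and COL3A1 had a median of 0 in both groups. Over the whole endothelial list the frontal cortex median was 13.4 CPM and the hippocampal median 16.4 CPM. PECAM1 and TEK, which went opposite ways, had the highest medians of that list, and the other members had medians of 0.848 CPM or less. The part of these cells in the collagen difference was not tested. Without the samples of pigs 12599 and 12891 the COL4A2 log2 fold change was 2.01 (edgeR, adjusted p = 0.000587).

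A list of basement membrane genes, written after values were seen and so given without a test, held 7 tested genes besides many too low to test. The collagen-modifying enzymes P4HA1, P4HB, PLOD1 and PLOD3 had log2 fold changes from -0.07 to 0.05, each with an adjusted p of 0.87 or more. LAMC1, a laminin chain, had a log2 fold change of 0.33 ± 0.25, which ran from 0.04 to 0.43 with 1 sample left out. It was -0.10 with the pig as a fixed effect, a fit whose estimates rest on the 3 pigs with both regions. The median of the 7 was 0.05, beside 0.02 over all tested genes.

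A further pair of matrix-related genes passed 0.05. THBS3, a secreted thrombospondin, was 22.3 to 46.9 CPM in frontal cortex and 13.3 to 26.0 CPM in hippocampal microglia, a log2 fold change of 0.91 ± 0.17 (edgeR, adjusted p = 0.0196). ITGA9, the alpha chain of an integrin that binds tenascin and osteopontin, had a log2 fold change of 0.90 ± 0.19 (edgeR, adjusted p = 0.0437). Both groups overlapped for these 2 genes. Of 9 tested integrin genes ITGA9 alone passed 0.05. ITGAM, which encodes the CD11b used in the sort, was 672 to 856 CPM and 664 to 1002 CPM, with a log2 fold change of 0.00 ± 0.09.

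ENSSSCG00000044051 had the largest fold of the 4 genes, but no name was paired with it in the sources used here. It was 33.7 to 72.2 CPM in frontal cortex (median 46.4) and 2.96 to 12.5 CPM in hippocampal microglia (median 7.40). The log2 fold change was 2.75 ± 0.28 (edgeR, adjusted p = 3.86e-05), and the within-pig differences were 2.64, 2.99 and 1.74. Its 2 highest values were in the samples of pigs 12599 (72.2 CPM) and 12891 (68.7 CPM), which also led the oligodendrocyte sum. Without them its log2 fold change was 2.55 (edgeR, adjusted p = 0.000449).

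A2M encodes alpha-2-macroglobulin, a secreted trap for proteases that also binds growth factors and cytokines. It was 373 to 615 CPM in frontal cortex (median 474) and 747 to 933 CPM in hippocampal microglia (median 790). Even the highest frontal cortex sample lay well below the lowest hippocampal one. The log2 fold change was -0.76 ± 0.10 (95% interval -0.98 to -0.55; edgeR, adjusted p = 0.00113). Within pigs 12750, 12758 and 12847 the differences were -0.90, -0.59 and -0.93.

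RGS9 encodes a regulator that speeds GTP hydrolysis by G-protein alpha subunits and is best known from the retina and striatum. It was 13.9 to 24.2 CPM in frontal cortex (median 18.0) and 29.3 to 73.9 CPM in hippocampal microglia (median 39.0). The hippocampal samples were the more spread, with pig 12781 the highest, and the groups did not overlap. The log2 fold change was -1.25 ± 0.19 (edgeR, adjusted p = 0.00541). The other tested RGS genes, RGS1, RGS10 and RGS19, had log2 fold changes of 0.13, -0.14 and 0.10 (for RGS1 -0.24 with the pig as a fixed effect), each with an adjusted p of 0.70 or more (this list, too, was written after values were seen).

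The calls of A2M and RGS9 depended on the model more than those of the frontal cortex genes. Summed immediate early genes were 535 to 1105 CPM in frontal cortex and 710 to 1179 CPM in hippocampal samples. With that sum as a covariate the log2 fold changes stayed at -0.69 and -1.23 while the adjusted p rose to 0.0134 and 0.04 (edgeR). RGS9 kept an adjusted p under 0.01 in 8 of the 16 fits that each left out 1 sample, with 0.0188 as the highest, and A2M in all 16.

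**Figure D2:**
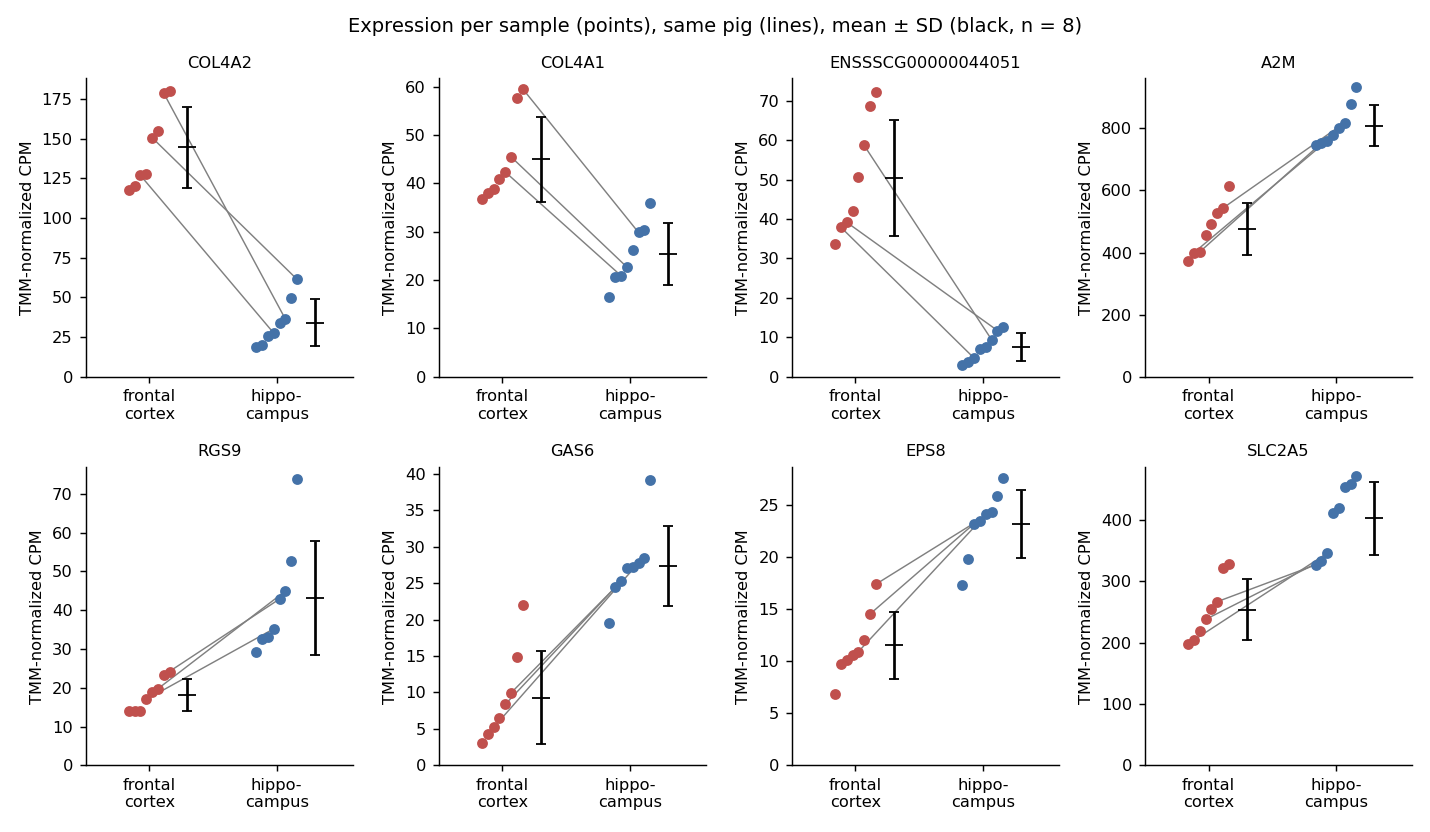
TMM-normalized CPM (vertical axis, from 0) of 8 genes in frontal cortex (red) and hippocampal (blue) microglia, 1 point per sample, with grey lines joining the 3 pigs that gave both regions and the mean ± SD of 8 samples in black. COL4A2, COL4A1 and ENSSSCG00000044051 are higher in every frontal cortex sample, A2M and RGS9 in every hippocampal sample, and GAS6, EPS8 and SLC2A5 overlap.

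COL4A1, THBS3, ITGA9 and the genes described next passed 0.05 and not 0.01, and were chosen for naming after their values were seen. Among these hippocampal genes, GAS6 had the largest fold. GAS6 encodes a ligand that bridges phosphatidylserine on dying cells to the receptors TYRO3, AXL and MERTK. It was 3.05 to 22.0 CPM in frontal cortex (median 7.41) and 19.5 to 39.1 CPM in hippocampal microglia (median 27.2), with a log2 fold change of -1.56 ± 0.32 (edgeR, adjusted p = 0.0399). The frontal cortex sample of pig 12720 lay inside the hippocampal range. Its receptors did not pass: MERTK had a log2 fold change of -0.39 ± 0.10 (edgeR, adjusted p = 0.0936) and AXL 0.08 ± 0.09 (adjusted p = 0.83). With the pig as a random effect in limma-voom MERTK passed 0.05 (adjusted p = 0.0235).

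Sugar uptake and its first step were represented by a pair of genes. SLC2A5, the fructose transporter that marks microglia in brain, was 198 to 329 CPM in frontal cortex and 327 to 473 CPM in hippocampal microglia (log2 fold change -0.66 ± 0.12; edgeR, adjusted p = 0.0196). HK2, the hexokinase that phosphorylates glucose, was 199 to 306 CPM and 301 to 408 CPM (log2 fold change -0.56 ± 0.10; edgeR, adjusted p = 0.0234). The ranges of both genes touched only at their ends. The other 20 tested genes of the glycolysis and glucose list did not pass, and the list's median was -0.02.

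EPS8, which caps actin filaments and was also higher in hippocampal microglia, was 6.85 to 17.4 CPM in frontal cortex and 17.3 to 27.6 CPM in hippocampal microglia, a log2 fold change of -1.01 ± 0.17 (edgeR, adjusted p = 0.0102). RPS6KA5, a nuclear kinase downstream of MAP kinases, was 30.5 to 57.1 CPM and 61.3 to 89.4 CPM, without overlap. PDE3B, a phosphodiesterase that breaks down cyclic AMP, AMPD3, which deaminates AMP, SIPA1L2, a GTPase-activating protein of Rap, and MTCL1, which crosslinks microtubules, had log2 fold changes from -0.82 to -0.57. ERCC6, which acts in transcription-coupled DNA repair, had a small change of -0.48 ± 0.09 with groups that did not overlap. EMR4, an adhesion G-protein-coupled receptor of the ADGRE family, was -0.79 ± 0.14, and how reads were divided among that family was not tested.

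Among the other frontal cortex genes, SLC66A1, a lysosomal exporter of cationic amino acids, was 29.3 to 38.2 CPM in frontal cortex and 17.5 to 24.9 CPM in hippocampal microglia, without overlap (log2 fold change 0.71 ± 0.12; edgeR, adjusted p = 0.0102). TMEM176A and TMEM176B, related membrane proteins of antigen-presenting cells, had log2 fold changes of 0.71 ± 0.15 and 0.54 ± 0.11. These genes overlap on opposite strands of chromosome 18, and, as for the collagen pair, reads in an overlap could be given to either. RGL1, STK17B, AKR1B1, NDRG2 and SELENOP had log2 fold changes from 0.50 to 0.81. SELENOP carries selenium, AKR1B1 is aldose reductase, and NDRG2 is also abundant in astrocytes. The astrocyte marker sum was 230 to 549 CPM in frontal cortex and 213 to 499 CPM in hippocampal samples. Most of it was SLC1A3 (medians 208 and 245 CPM), while AQP4, GJA1, AGT and FGFR3 had medians of 6.97 CPM or less in either group.

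**Figure D3:**
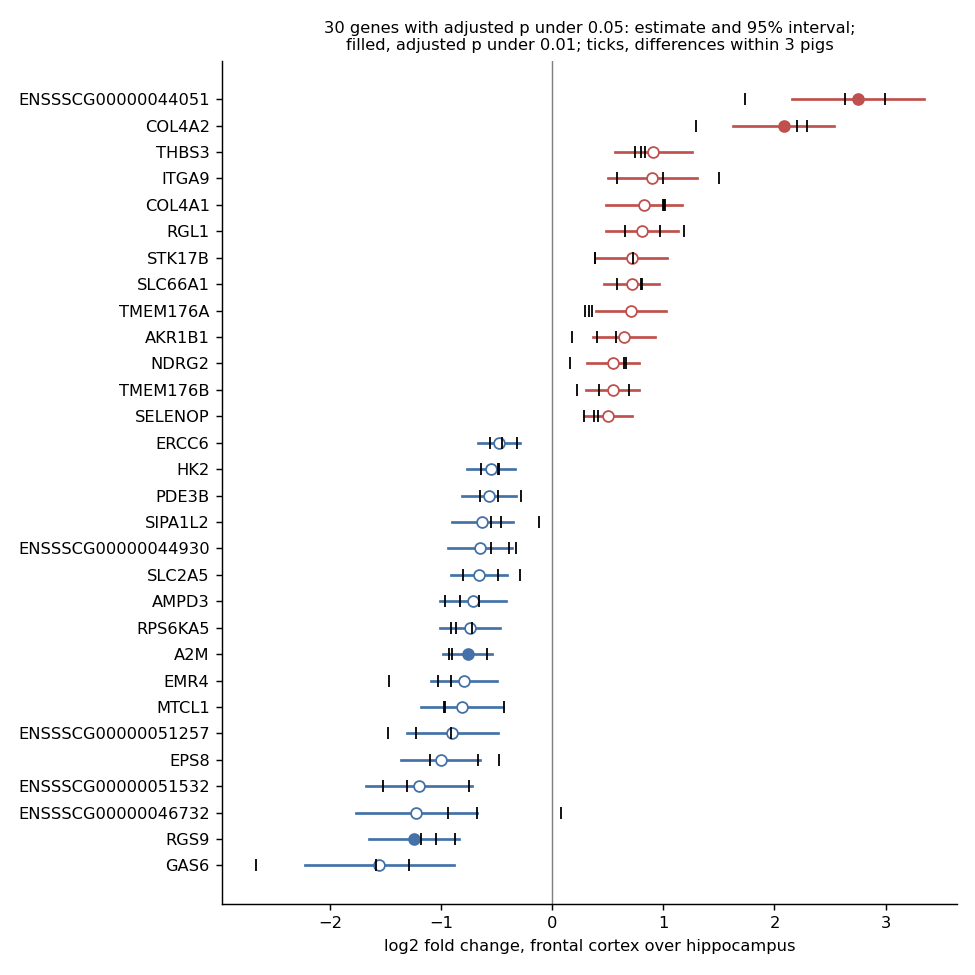
Log2 fold change (horizontal axis, positive where frontal cortex is higher) with its 95% interval for the 30 genes with an adjusted p under 0.05, with filled points for an adjusted p under 0.01 and ticks for the differences within the 3 pigs that gave both regions. Of the 30 genes, 29 have all 3 ticks on the side of the estimate.

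Within the 3 pigs that gave both regions, 29 of the 30 genes moved in the direction of the estimate in all 3 pigs, and ENSSSCG00000046732 in 2. These pigs are part of the fit, so this describes its spread. In the 10 samples of the other pigs all 30 genes kept their sign, but of these only COL4A2 and ENSSSCG00000044051 passed 0.05 there. Those samples are also part of the fit that picked the 30 genes, so the kept signs are not separate evidence. No pig among them gave both regions, so region was compared there only between different animals. With the pig as a random effect in limma-voom, 7 genes higher in frontal cortex and 16 higher in hippocampus passed 0.01, among them 20 of the 30. With the pig as a fixed effect in edgeR, the region estimate rests on the 3 pigs with both regions, because the others add nothing to it. That fit leaves 2 residual degrees of freedom, and 0 genes passed 0.01 or 0.05 (420 had an unadjusted p under 0.05). The adjusted p was 0.0749 for COL4A2 and ENSSSCG00000044051, 0.154 for A2M and 0.178 for RGS9. In the limma-voom fit with the pig as a random effect these were 1.78e-06, 3.92e-06, 0.000146 and 0.00294, in the same order.

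Of 18 tested microglial markers, SLC2A5 alone passed 0.05, beside 0.388% of all tested genes. TMEM119, a surface marker of unknown function, was 360 to 600 CPM in frontal cortex and 348 to 588 CPM in hippocampal microglia, with a 95% interval of the log2 fold change from -0.23 to 0.26. The fractalkine receptor CX3CR1 (interval -0.12 to 0.49) and CSF1R (-0.12 to 0.41) were also within 1.5-fold. For the ADP receptor P2RY12 the interval was wider, -0.19 to 0.78, and the frontal cortex samples spread from 242 to 1079 CPM. Of all tested genes, 71.1% had a 95% interval within 1.5-fold and 93.5% within 2-fold, with a median SE of 0.15.

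The immune effector genes C3 and CD74 did not pass in edgeR, and the call of C3 changed with the pig in the model. C3, the central complement protein, was 1617 to 3198 CPM in frontal cortex (median 2586) and 3224 to 4422 CPM in hippocampal microglia (median 3559). The groups did not overlap, as for 16 of the 7738 genes (0.207%; 7, or 0.0905%, with frontal cortex above and 9, or 0.116%, with hippocampus above), but the log2 fold change of -0.50 ± 0.13 had an adjusted p of 0.109 (edgeR). With the pig as a random effect in limma-voom it passed 0.05 (adjusted p = 0.0149). CD74, the invariant chain that escorts MHC class II, was 118 to 305 CPM and 187 to 703 CPM (log2 fold change -0.97 ± 0.28; edgeR, adjusted p = 0.177; limma-voom with the pig as a random effect, 0.057). In all 3 pigs with both regions the hippocampal sample had the higher C3 and CD74.

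**Figure D4:**
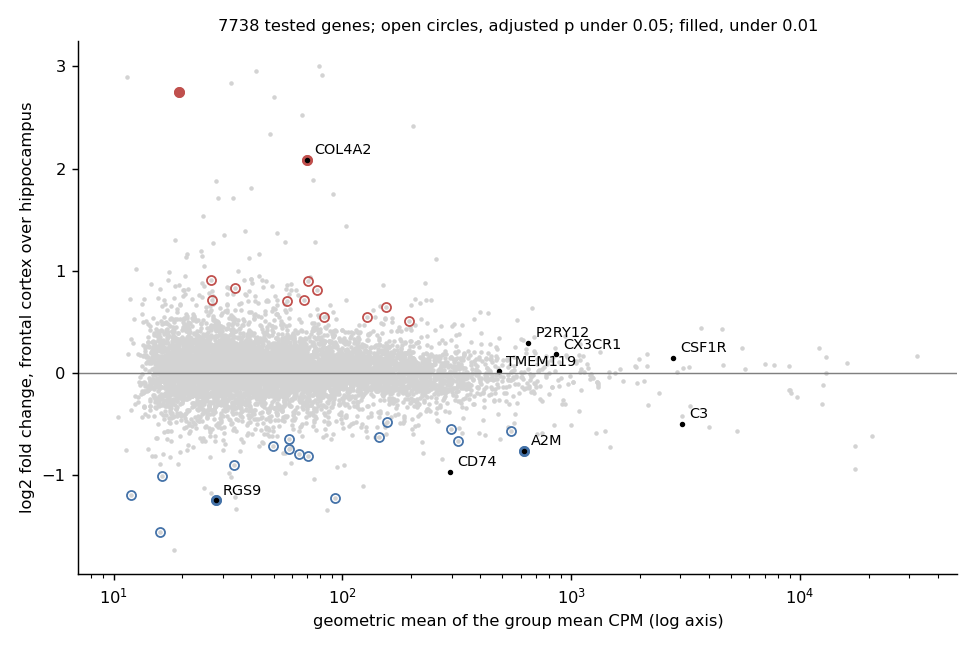
Log2 fold change (vertical axis, positive where frontal cortex is higher) against mean CPM (horizontal log axis) for 7738 tested genes, with open circles for an adjusted p under 0.05 and filled circles under 0.01. TMEM119, CX3CR1, CSF1R and P2RY12 lie near 0, and most genes beyond 2-fold are not circled.

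Of the 49 genes with a fitted change over 2-fold, 7 passed 0.05. Of the 49, 35 were higher in frontal cortex, and without the samples of pigs 12599 and 12891 10 of those were still over 2-fold, as were 10 of the 14 that were higher in hippocampus. Oligodendrocyte genes were among the 35. OPALIN, a myelin membrane protein, had a median of 52.8 CPM and a highest value of 653 CPM in frontal cortex and was 3.69 to 74.2 CPM in hippocampal samples (median 11.7), with a log2 fold change of 2.52 ± 0.92 (edgeR, adjusted p = 0.307). The 4 tested genes of the oligodendrocyte list had a median log2 fold change of 1.43, 0.27 without the samples of pigs 12599 and 12891 and 0.38 with the pig as a fixed effect. Those 2 samples had the highest oligodendrocyte sums and were chosen after the data were seen, so the fall without them is built in. None of the 4 genes passed 0.01 in edgeR, limma-voom or DESeq2, and 3 had an unadjusted p under 0.05.

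Interferon-induced genes had the highest median of the 21 lists with 5 or more tested members. Of 26 tested genes, 24 had a higher estimate in frontal cortex, with a median of 0.50, beside 53.5% of all tested genes. None passed 0.01 or 0.05 in edgeR, none passed 0.01 in limma-voom or DESeq2, and 10 had an unadjusted p under 0.05. BST2, a tether of enveloped viruses, was 24.9 to 65.5 CPM in frontal cortex (median 39.7) and 13.2 to 43.3 CPM in hippocampal microglia (median 19.2), with a log2 fold change of 0.83 ± 0.24 (edgeR, adjusted p = 0.177). PARP9, a member of the ADP-ribosyltransferase family, was 24.3 to 60.3 CPM and 15.3 to 34.5 CPM (log2 fold change 0.67 ± 0.20; adjusted p = 0.179). Summed over the list, the sample of pig 12758 held less in frontal cortex than in hippocampus (2108 and 2495 CPM), and pigs 12750 and 12847 held more (3720 and 3378 CPM, 3504 and 2748 CPM). With the pig as a fixed effect the median was 0.07.

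Mitochondrially encoded genes had 13 of 13 estimates above 0, with a median of 0.47, or 0.16 with the pig as a fixed effect. None passed 0.01 in edgeR, limma-voom or DESeq2, and 3 had an unadjusted p under 0.05. ATP8, a subunit of ATP synthase, had the smallest p. Its frontal cortex values ran from 24.7 to 764 CPM (median 52.7) and its hippocampal values from 28.1 to 51.9 CPM (median 39.9). For all 13 genes the highest value was in the frontal cortex sample of pig 12902, which also had the highest sum. The frontal cortex median was below the hippocampal one for CYTB (790 and 805 CPM) and ND6 (120 and 125 CPM), and above it for the others.

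The remaining lists were close to the whole. Homeostatic receptors (16 tested), microglial transcription factors (20), complement (12), antigen presentation (13), lysosomal genes (25), oxidative phosphorylation (38) and ribosomal proteins (53) had medians from -0.07 to 0.07, and none of their 176 distinct members passed 0.05 in edgeR or 0.01 in limma-voom or DESeq2 (19 had an unadjusted p under 0.05). LPAR5 and TNFRSF21, BCL6 and IRF8, CFI, CTSS, CD68 and LIPA, NDUFB10 and ATP5F1D, and RPS15 and RPL27 had the smallest p-values in these lists besides C3 and CD74, with adjusted p from 0.109 upward. In the actin and migration list, 27 of 39 tested genes had an estimate above 0 and EPS8 alone passed 0.05. Cholesterol genes (27 tested), TGF-beta signalling (23), cytokines and NF-kB (15), heat shock (13), the circadian clock (9), and lipid-handling and disease-associated genes (10) had medians from -0.05 to 0.06. None of their 96 distinct members passed 0.05 in edgeR (10 had an unadjusted p under 0.05), and DESeq2 called 1 at 0.01. SOAT1, which esterifies cholesterol, came closest in edgeR, with a log2 fold change of -1.12 ± 0.27 (edgeR, adjusted p = 0.0665; 0.015 in limma-voom with the pig as a random effect).

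Immediate early genes had the lowest median of the lists with 5 or more tested members, -0.22 over 11 genes with 7 estimates below 0, and -0.06 with the pig as a fixed effect. JUN, a subunit of AP-1, was 69.1 to 277 CPM in frontal cortex and 113 to 252 CPM in hippocampal microglia (log2 fold change -0.60 ± 0.26; edgeR, adjusted p = 0.429), and IER2 followed (-0.45 ± 0.21). Glucocorticoid response genes had a median of 0.17 over 13 tested members (-0.12 with the pig as a fixed effect), led by BCL6 and the clock gene PER1, whose estimate of 0.92 ± 0.35 came with frontal cortex values of 16.2 to 114 CPM. Of 6 tested receptors for transmitters and neuropeptides, 5 had estimates above 0, among them VIPR1, a receptor of vasoactive intestinal peptide (0.72 ± 0.20; adjusted p = 0.126), and CALCRL, the calcitonin-like receptor (1.19 ± 0.37; adjusted p = 0.208).

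Markers of other leukocytes overlapped between the regions. T and NK cell markers summed to 116 to 196 CPM in frontal cortex and 157 to 232 CPM in hippocampal samples, against 8.79 to 11.7 CPM in tissue. CD2 and PRF1, the tested members, made up most of these sums and had lower medians in frontal cortex. CD3D, CD3E, CD8A, CD4 and NKG7 had higher medians there, and CD5 and IL7R a median of 0 in both groups. CD3D was 0.126 to 6.55 CPM in frontal cortex (median 2.28) and 0 to 0.135 CPM in hippocampal samples (median 0). Border macrophage markers summed to 395 to 755 CPM and 389 to 487 CPM. The scavenger receptor STAB1 was highest in frontal cortex samples of pigs 12891 (449 CPM), 12758 (351 CPM) and 12750 (299 CPM), and the other 13 samples lay between 123 and 207 CPM. Its log2 fold change was 0.66 ± 0.20 (edgeR, adjusted p = 0.179). MS4A7, of the same list, went the other way, at 113 to 199 CPM in frontal cortex and 152 to 266 CPM in hippocampal samples. Its log2 fold change was -0.41 ± 0.12 (edgeR, adjusted p = 0.179). Of the 4 tested border macrophage genes, 2 had estimates above 0 and 2 below.

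A list of 239 core microglial genes was chosen by the study on samples that include these hippocampal microglia, so it is not independent evidence. All 239 were tested. The estimate was lower in frontal cortex for 161 of them and higher for 78, with a median of -0.13. That median was -0.04 with the pig as a fixed effect, -0.07 without the samples of pigs 12599 and 12891, and -0.06 without TMM factors. None passed 0.01, 15 higher in frontal cortex and 31 higher in hippocampus had an unadjusted p under 0.05, and 4 passed 0.05, SLC2A5, EMR4, HK2 and ENSSSCG00000044930, all higher in hippocampal microglia. Of all tested genes, 10.3% had an unadjusted p under 0.05 and 0.388% passed 0.05. DESeq2 called 6 of the 239 at 0.01.

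Levels in the other groups, on a scale set over all 31 samples and without a test, place the regional genes. COL4A2 was 133 ± 20.2 CPM in frontal cortex microglia (mean ± SD, n = 8), 32.6 ± 14.1 in hippocampal and 18.0 ± 4.77 in cerebellar microglia, 1.87 ± 0.235 in alveolar macrophages (n = 3) and 98.8 ± 14.9 in hippocampal tissue (n = 4). A2M was 814 ± 141 CPM in cerebellar microglia, on the hippocampal side, and 80.9 ± 78.4 CPM in alveolar macrophages. RGS9 was 30.9 ± 9.22 CPM in cerebellar microglia, and GAS6 was 11.2 to 50.6 CPM there, with a mean of 30.4. For 17 of the 30 genes the cerebellar mean lay beyond the hippocampal mean, seen from frontal cortex, and for the other 13 it lay between both. The 30 were picked for a difference between frontal cortex and hippocampus. No share over all tested genes stands beside these counts, so they are description only. Of the 30, 4 had a higher mean in hippocampal tissue than in both microglia groups, ENSSSCG00000044051, ITGA9, EPS8 and NDRG2. For ENSSSCG00000044051 the tissue mean was 64.2 CPM, against 46.1 CPM in frontal cortex and 7.17 CPM in hippocampal microglia.

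**Figure D5:**
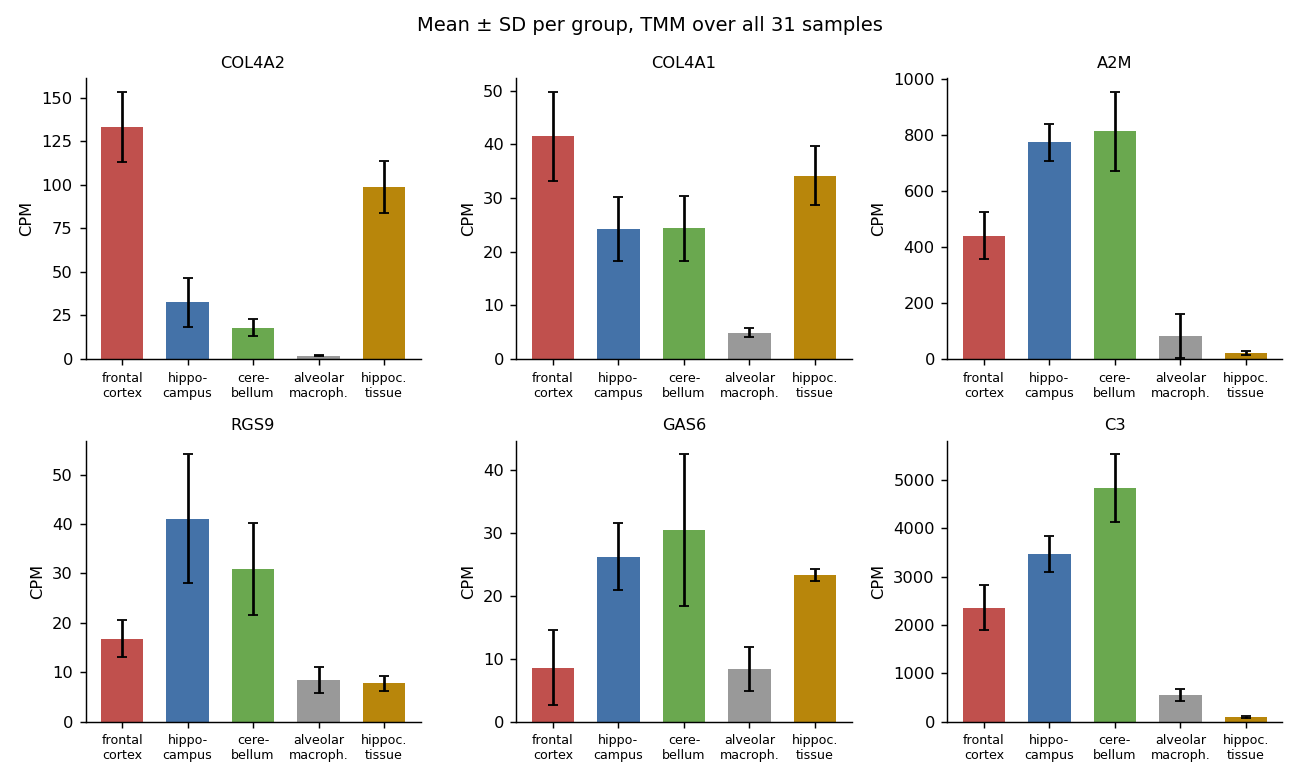
Mean ± SD of CPM (bars from 0), normalized over all 31 samples, for 6 genes in frontal cortex, hippocampal and cerebellar microglia (n = 8 each), alveolar macrophages (n = 3) and hippocampal tissue (n = 4). COL4A2 is highest in frontal cortex microglia, and A2M is near 800 CPM in hippocampal and cerebellar microglia.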

How the data were processed

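RNA was sequenced from sorted frontal cortex and hippocampal microglia (n = 8 each) with a stranded total RNA kit. Reads were trimmed (BBtools) and aligned by Hisat2 to Sscrofa11.1 by the authors, who deposited unnormalized StringTie counts per Ensembl gene. Strand use in the counting is not given in the sources used here. Symbols for 15252 of 31907 genes came from reference tables (15029) and supplementary pairings (223). Promoter sequence and positions are from the Sscrofa11.1 genome with RefSeq annotation.

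From the 16 samples, 7738 genes were kept, those above 10 CPM throughout either group. After TMM normalization (factors 0.852 to 1.14), robust quasi-likelihood models of edgeR 4.0.16 (R 4.3.3) were fitted, with no term for the pig. Benjamini-Hochberg adjustment covered all 7738 genes, at thresholds of 0.01 and 0.05. CPM is TMM-normalized, and a prior count of 2 was added for log2 CPM. Standard errors come from the F statistic. Exact permutation tests used scipy 1.17.1. The fits were also run on simulated data drawn without a pig effect, which cannot test how they treat samples of the same pig. Replicates are different pigs within a group, and no pair of samples was a copy (lowest chi-square per degree of freedom 55.3). The tag number marks the same animal in 3 pigs, whose correlations of deviations from the group means were 0.372, 0.203 and 0.111. The mean over 61 pairs of different pigs was -0.0113. Their spread is not given, so a single value such as 0.111 cannot be placed against it.

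Named genes were all with a symbol under 0.01, list members under 0.01 or otherwise the 2 with the smallest p, and 6 reference genes. Members, lists and rules were chosen with earlier results of these data known. Also run were limma-voom (limma 3.58.1), the method of the study, DESeq2 1.42.0, RLE or no factors, filterByExpr or no filter, more samples in the fit, an adjusted p under 0.05, the pig as a replicate block, quality weights, marker or immediate early sums as covariates, and each sample left out in turn. Chosen after seeing the data were the fit without the frontal cortex samples of pigs 12599 and 12891 and that of the 10 samples of pigs with 1 region.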

Additional observations from a re-analysis of the deposited data

Results flagged for a closer look

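Among the genes and marker sums above, 212 groups of 8 samples were examined on a log2 scale, and 8 held a sample whose gap to the next, as a share of the group's range, exceeded Dixon's critical value at 95%. Chance flags about 1 in 20 groups. In hippocampal microglia, EMR4 was 53.9 CPM in pig 12829 (others 78.5 to 104 CPM), AKR1B1 was 181 CPM in pig 12847 (others 101 to 130 CPM), CD68, a lysosomal membrane protein of phagocytes, was 98.2 CPM in pig 12758 (others 143 to 193 CPM), and the summed neuron markers were 234 CPM in pig 12781 (others 66.7 to 113 CPM). Without the hippocampal sample of pig 12829 the adjusted p of EMR4 was 0.00438, and without that of pig 12847 the adjusted p of AKR1B1 was 0.00803 (edgeR). Both samples were picked for lying apart, on the side of the frontal cortex values. A lower adjusted p without them follows from that choice and adds no support.

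In frontal cortex microglia, STK17B was 53.9 CPM in pig 12599 (others 77.2 to 106 CPM). KCNJ13, a potassium channel listed as a choroid plexus marker, was 9.19 CPM in pig 12720 (others 18.4 to 26.8 CPM), as was the whole choroid plexus and ependyma sum there (9.19 CPM, others 20.7 to 26.9 CPM). The summed mural and fibroblast markers were 275 CPM in pig 12902 (others 435 to 526 CPM), of which COL1A2, a fibrillar collagen chain, made 263 CPM.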

How the results depend on the processing

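COL4A2 kept its direction and an adjusted p under 0.01 in every alternative except those with the pig as a fixed replicate block and the 3 pigs alone. The main counts at 0.01 were 2 genes higher in frontal cortex and 2 higher in hippocampus. They were 3 and 5 with limma-voom, 26 and 27 with DESeq2, 2 and 2 with RLE factors, 3 and 0 without normalization factors (772 genes with an unadjusted p under 0.05), 4 and 1 without a filter, 2 and 9 with all 24 microglia samples, 5 and 7 with all 31 samples, and 13 and 17 at 0.05. They were 2 and 4 with summed brain markers as a covariate, 2 and 0 with immediate early genes (667 unadjusted), and 2 and 4 without the frontal cortex samples of pigs 12599 and 12891. The pig as a replicate block gave 0 and 0 as a fixed effect in edgeR (420 unadjusted) and 7 and 16 as a random effect in limma-voom. The 3 pigs alone, on which the fixed effect estimate also rests, gave 0 and 0 (421 unadjusted). Leaving out 1 sample gave 2 to 4 and 1 to 6. RGS9 was lost without the frontal cortex sample of pig 12599, 12707, 12720, 12847 or 12902 or the hippocampal sample of pig 12750, 12758 or 12872, and, besides the fits above, without factors (adjusted p 0.011), with quality weights (0.0144) and in the 10 samples of other pigs (0.0995). A2M was lost without factors (adjusted p 0.0324), without a filter (0.0134), with 31 samples (0.114) and in the 10 samples of other pigs (0.0633), and ENSSSCG00000044051 with 24 samples (0.0149). The cause of these differences was not tested.

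With the pig as a replicate block, list medians moved most, among lists with 5 or more tested members, for interferon response (0.073), mitochondrial (0.16), glucocorticoid response (-0.12), cholesterol (-0.20) and immediate early genes (-0.061). The median of the 4 oligodendrocyte markers became 0.38. C3, MERTK and SOAT1 passed 0.05 with the block as a random effect. Signs turned in several fits, for genes that did not pass. The fixed block and the 3 pigs alone both estimate region from the same 3 pigs, so their likeness is not separate evidence. They gave IRF8 0.045 and 0.042, PER1 -0.047 and -0.050, CX3CR1 -0.012 and -0.015, CD79A -0.0033 and -0.0066, and ETV1 -0.22 and -0.23. Among members of lists written later, the fixed block turned LAMC1 (-0.095), RGS1 (-0.24), P4HA1 (0.045), P4HB (0.093), PLOD3 (-0.025) and PROS1 (0.27), and RGS1, P4HB, PLOD1, PLOD3 and ITGAM turned in fits with 1 sample left out. TMEM119 was -0.019 with filterByExpr, -0.045 without a filter, -0.028 with immediate early genes, and -0.040 to 0.066 with 1 sample left out. Brain markers as a covariate gave SLC1A2 -0.18 and CD79A -0.062, and leaving out pigs 12599 and 12891 -0.31 and -0.092. The 10 samples of other pigs gave SCD 0.12 and MAP2 0.049. With 8 samples per region the 95% interval stayed within 1.5-fold for 71.1% of tested genes, and larger differences could be missed in the others.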
